A study of Rattus norvegicus with 43 samples.

Results

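The cytochrome P450 genes Cyp2b2, Cyp2b15, Cyp3a9, Cyp3a18, Cyp3a23-3a1 and Cyp1a2 were described in liver, lung and mammary gland of rats given a retinoid. They were chosen as known targets of the receptors CAR, PXR and AhR, with earlier results of these data known. They were found by the gene symbol of the array's annotation. Of 8799 probe sets, 12 carried 1 of these 6 symbols alone, out of 4737 genes that had such a probe set. Another 5 probe sets carried a member together with a second gene and were kept apart. All rats were female Sprague-Dawley animals, treated for 7 days from 100 days of age. They received Targretin by gavage, 60 mg for each kg of body weight, 9-cis-retinoic acid (9cRA) in the feed at 100 mg per kg diet, 4-hydroxyphenylretinamide (4HPR) in the feed at 782 mg per kg diet, or the diet with no agent. There were 3 arrays of each organ for Targretin, 4 of each for 9cRA, 4 of liver, 4 of lung and 3 of mammary gland for 4HPR, and 4 of liver, 3 of lung and 4 of mammary gland for diet, 43 in all. The labels give no vehicle gavage for the diet rats, so agent and gavage cannot be told apart for Targretin. They do not say that the arrays of a group came from separate rats, so p-values measure the spread between these arrays. Tissues were taken whole, and fewer cells of a type and less RNA per cell cannot be told apart.

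The P450 enzymes of the Cyp2b, Cyp3a and Cyp1a subfamilies oxidise drugs, steroids and environmental chemicals, mostly in hepatocytes, and their genes are switched on by receptors that sense such compounds. CAR (gene Nr1i3) is best known for inducing Cyp2b genes and PXR (Nr1i2) for inducing Cyp3a genes. Both bind DNA as a pair with RXR, the receptor for 9cRA and for Targretin, which is also called bexarotene. AhR pairs with Arnt and induces Cyp1a genes after dioxins and similar ligands. 4HPR, also called fenretinide, is a synthetic amide of retinoic acid.

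The bases around the start of 5 of the genes are shown because genes of 1 subfamily moved in different directions in liver, and because the half-sites of these receptors can be looked up in them. Each window is from RefSeq (GRCr8) and holds 250 bases before and 50 bases after the gene start, written 5′ to 3′ on the gene's strand. Capitals mark the letters AGTTCA or AGGTCA, half-sites of nuclear receptors, and GCGTG, the core of the AhR element, on either strand. The Cyp2b2 window is chr1:90722031-90722330 on the plus strand and that of Cyp2b15 is chr1:91221615-91221914 on the plus strand. The Cyp3a9 window is chr12:21960111-21960410 on the minus strand, that of Cyp3a18 is chr12:13994062-13994361 on the plus strand and that of Cyp3a23-3a1 is chr12:14398754-14399053 on the minus strand.
Cyp2b2: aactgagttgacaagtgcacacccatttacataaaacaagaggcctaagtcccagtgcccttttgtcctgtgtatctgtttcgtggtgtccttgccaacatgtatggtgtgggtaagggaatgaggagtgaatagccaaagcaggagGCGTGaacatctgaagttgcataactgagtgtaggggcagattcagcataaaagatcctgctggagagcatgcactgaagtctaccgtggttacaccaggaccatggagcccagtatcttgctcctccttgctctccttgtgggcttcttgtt
Cyp2b15: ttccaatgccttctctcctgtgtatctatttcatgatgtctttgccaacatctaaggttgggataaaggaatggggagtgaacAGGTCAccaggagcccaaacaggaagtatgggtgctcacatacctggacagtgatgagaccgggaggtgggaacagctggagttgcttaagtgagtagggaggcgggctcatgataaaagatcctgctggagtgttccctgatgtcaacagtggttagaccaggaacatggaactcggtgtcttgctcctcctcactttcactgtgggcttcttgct
Cyp3a23-3a1: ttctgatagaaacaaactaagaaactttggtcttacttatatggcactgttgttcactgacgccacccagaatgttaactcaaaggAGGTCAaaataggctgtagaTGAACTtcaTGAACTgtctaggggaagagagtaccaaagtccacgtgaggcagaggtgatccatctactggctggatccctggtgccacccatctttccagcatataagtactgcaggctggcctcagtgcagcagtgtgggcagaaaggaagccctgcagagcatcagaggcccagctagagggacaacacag
Cyp3a9: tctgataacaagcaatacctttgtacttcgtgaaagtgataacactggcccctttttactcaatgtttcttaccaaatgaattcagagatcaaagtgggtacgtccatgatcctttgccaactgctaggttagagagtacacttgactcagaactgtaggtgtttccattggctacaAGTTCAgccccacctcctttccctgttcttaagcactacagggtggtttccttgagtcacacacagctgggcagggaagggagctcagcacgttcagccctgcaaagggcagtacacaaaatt
Cyp3a18: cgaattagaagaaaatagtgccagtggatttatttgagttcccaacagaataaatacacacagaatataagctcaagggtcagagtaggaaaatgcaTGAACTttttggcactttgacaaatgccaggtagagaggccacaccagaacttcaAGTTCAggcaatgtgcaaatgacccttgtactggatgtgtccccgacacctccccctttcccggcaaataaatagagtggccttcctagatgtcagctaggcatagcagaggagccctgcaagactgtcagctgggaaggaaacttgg

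The Cyp3a23-3a1 window held AGTTCA as a direct repeat with 3 bases between the copies, read on the opposite strand as TGAACTTCATGAACT from -144 to -130 relative to the start. This spaced repeat, AGTTCANNNAGTTCA, is the form of PXR element known from this rat gene. It was searched for after the window had been seen, and it was found in 2 of 33469 promoters, those of Cyp3a23-3a1 and of its neighbour Cyp3a2. The Cyp3a9 window held 1 copy of AGTTCA and the Cyp3a18 window 2, 1 on each strand. AGTTCA is in 14.5% of all windows. AGGTCA was in the windows of Cyp2b15, Cyp3a23-3a1 and Cyp1a2 and in 16.2% of all windows. GCGTG was in the Cyp2b2 window alone among the 6 genes and in 29.7% of all windows. The Cyp1a2 window, on chromosome 8 beside Cyp1a1, held no GCGTG, which says only that these letters are not in these 300 bases. The windows of Cyp2b2 and Cyp2b15 matched at 187 of 300 bases and those of Cyp3a18 and Cyp3a23-3a1 at 168, against 125 to 150 in the other 13 pairs.

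Values are array signals on a linear scale, which can be compared between arrays for 1 probe set but not between probe sets. The median of an array lay between 265.9 and 389.7 for the livers, between 466.2 and 633.3 for the lungs and between 346.9 and 441.4 for the mammary glands. Of the liver arrays, diet array 2 and 4HPR array 4 had the lowest median correlations with their own group, 0.954 and 0.952, against 0.958 to 0.972 for the others. Targretin lung array 2 (0.892) was likewise the lowest of its group. Targretin mammary gland array 3 (0.946) was the lowest of its group by little, with the other Targretin glands at 0.951. All 9cRA glands lay lower, at 0.926 to 0.936. 4HPR lung array 3 held the highest sum of hepatocyte markers among the lungs. Hepatocyte markers matched the organ labels: their summed signal, over 17 genes, was 757767 to 1281107 in the liver arrays, against 10753 to 171754 over the lung arrays and 6278 to 132048 over the mammary gland arrays. Differences are on the scale of log2 of the signal plus 38.1, which understates changes of dim probe sets. They were tested with limma over the whole table, and a probe set passed at a Benjamini-Hochberg adjusted p under 0.05. The probe sets bright enough to be tested numbered 12 for liver, 10 for lung and 9 for mammary gland. The 3 comparisons with diet in an organ share the diet arrays.

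In liver, probe sets of 5 of the 6 genes passed after Targretin: those of Cyp2b2, Cyp2b15 and Cyp3a23-3a1 rose, and those of Cyp3a18 and Cyp1a2 fell. 9cRA raised Cyp3a9 and lowered Cyp3a18, and 4HPR raised Cyp3a9 and Cyp3a23-3a1. Of the 12 probe sets, 10 passed against diet after Targretin, beside 11.1% of all probe sets tested: 6 were higher, beside 4.88% of all, and 4 lower, beside 6.26%. After 9cRA 2 passed, beside 5.16% of all, with 1 higher (2.55%) and 1 lower (2.61%). After 4HPR 4 passed, beside 2.78% of all, with 4 higher (1.18%) and 0 lower (1.59%). Without diet array 2 and 4HPR array 4 the counts were 8, 2 and 3. As the genes were chosen with earlier results known, the shares of all are given for scale and not as a test. The median log2 difference of the 12 was 0.34 after Targretin, -0.11 after 9cRA and 0.09 after 4HPR, against -0.02, -0.01 and -0.10 over all probe sets tested.

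**Figure D1:**
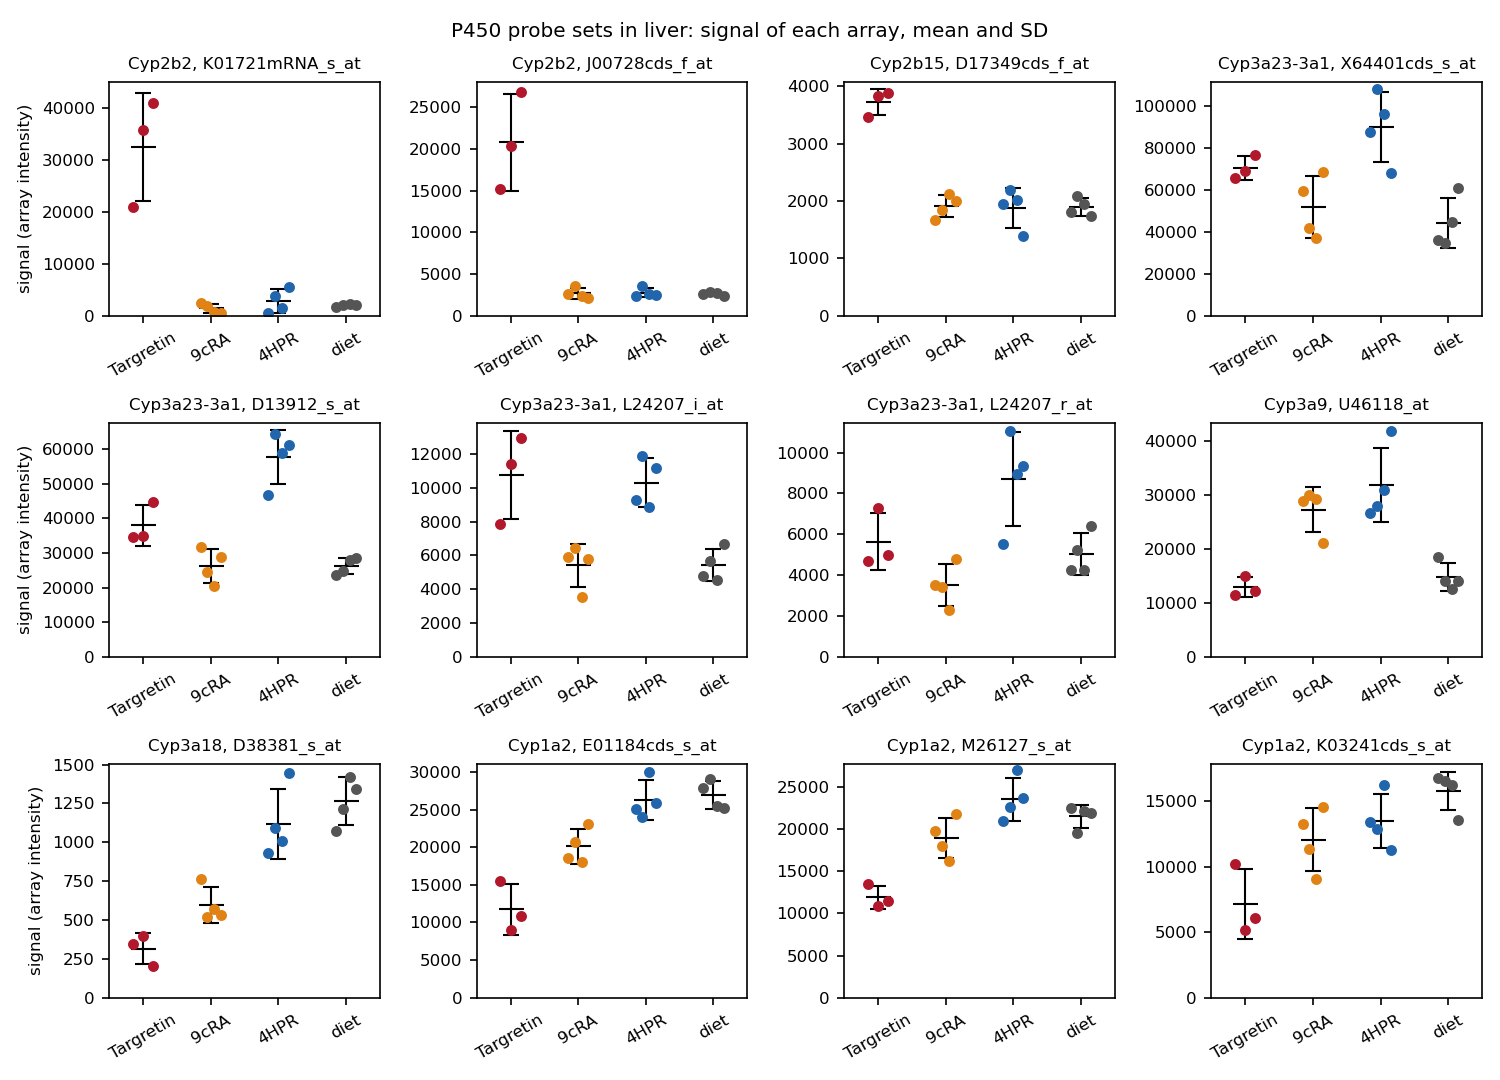
Signal (array intensity, linear axis from 0) of the 12 P450 probe sets in each liver array, with the group mean and SD, for Targretin (n = 3), 9cRA, 4HPR and diet (n = 4 each). The Targretin arrays stand above all others for both Cyp2b2 probe sets and Cyp2b15, and below all others for Cyp3a18 and for 2 of the 3 Cyp1a2 probe sets.

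Cyp2b2 encodes a phenobarbital-inducible enzyme and is the standard CAR target of rat liver. Its probe set J00728cds_f_at read 15200.1, 20312.1 and 26843.6 in Targretin livers, against 2667.9, 2906.5, 2715.7 and 2395.5 in diet livers. All Targretin arrays were far above all diet arrays, a rise of 7.50-fold (log2 2.91 ± 0.20 SE, adjusted p = 6.8e-08). The brighter probe set K01721mRNA_s_at read 20970.3, 35822.0 and 41043.9 in Targretin livers, against 1702.7, 2058.6, 2258.3 and 2119.6 in diet livers, again without overlap. This was 15.2-fold (log2 3.93 ± 0.60, adjusted p = 2.7e-04).

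The other retinoids gave no passing change of Cyp2b2, but the probe sets differed in their scatter. J00728cds_f_at stayed between 2106.5 and 3582.3 in 9cRA livers and between 2405.1 and 3516.2 in 4HPR livers, on both sides of the diet range of 2395.5 to 2906.5. K01721mRNA_s_at read 2397.0, 1972.2, 754.6 and 499.5 in 9cRA livers and 584.2, 3760.8, 1497.2 and 5616.7 in 4HPR livers, so that arrays of 1 group lay on both sides of the diet arrays. The 95% interval of its log2 difference ran from -1.94 to 0.39 for 9cRA and from -1.12 to 1.21 for 4HPR, and for J00728cds_f_at from -0.42 to 0.37 and from -0.35 to 0.44.

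Cyp2b1 is a near-identical copy of Cyp2b2, and probes of 1 gene can bind transcripts of the other, all the more in probe sets whose suffix marks a shared family. Each of the 4 probe sets annotated to Cyp2b2 together with Cyp2b1 or Cyp2b15 also passed after Targretin. Their log2 differences were 3.06 ± 0.25 (K00996mRNA_s_at), 3.39 ± 0.32 (L00320cds_f_at), 2.92 ± 0.22 (M11251cds_f_at) and 3.32 ± 0.22 (M13234cds_f_at). How much of each rise belongs to which gene was not tested.

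The probe set of Cyp2b15, another gene of the Cyp2b cluster on chromosome 1, rose with a smaller difference. It is the only one annotated to Cyp2b15 alone, and its suffix also marks a shared family. The part of other Cyp2b transcripts in its rise was not tested. This probe set, D17349cds_f_at, read 3472.3, 3835.6 and 3884.9 in Targretin livers, against 1801.5, 2094.7, 1950.3 and 1747.6 in diet livers. The groups did not overlap, and the rise was 1.95-fold (log2 0.96 ± 0.16, adjusted p = 6.3e-04). In 9cRA livers it read 1674.0 to 2131.2 and in 4HPR livers 1382.5 to 2185.8, both overlapping diet, with 95% intervals of -0.30 to 0.32 and -0.34 to 0.29 for the log2 difference.

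Cyp3a23-3a1 encodes the main steroid- and drug-inducible Cyp3a enzyme of rat liver and carries the repeat printed above. Its brightest probe set, X64401cds_s_at, read 87366.7, 107781.1, 96244.3 and 67978.8 in 4HPR livers, against 36175.4, 34757.5, 44477.2 and 60713.7 in diet livers. All 4HPR arrays were above all diet arrays, by 2.06-fold (log2 1.04 ± 0.20, adjusted p = 0.0099). D13912_s_at read 46643.6, 64238.6, 58888.9 and 61089.4 in 4HPR livers, against 23719.8, 24649.4, 27993.0 and 28575.1 in diet livers, a gap without overlap and a rise of 2.19-fold (log2 1.13 ± 0.15, adjusted p = 0.0013). L24207_i_at rose by 1.90-fold (log2 0.93 ± 0.20, adjusted p = 0.015), but did not pass without diet liver array 3 (log2 0.85, adjusted p = 0.059) or without diet array 2 and 4HPR array 4 (adjusted p = 0.0501). L24207_r_at read 5510.5 to 11039.8 in 4HPR livers, against 4243.2 to 6418.3 in diet livers, with overlap, and did not pass (log2 0.76 ± 0.24, adjusted p = 0.092). It did pass without 4HPR liver array 1 (log2 0.97, adjusted p = 0.042), with arrays of the same number as a block (adjusted p = 0.042) and with array quality weights (adjusted p = 0.037).

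After Targretin, 3 of the 4 probe sets of Cyp3a23-3a1 passed, with values closer to diet. X64401cds_s_at read 65749.7, 68755.5 and 76534.2 in Targretin livers, all above the highest diet array at 60713.7 (log2 0.71 ± 0.22, adjusted p = 0.046). D13912_s_at read 34458.9, 34744.4 and 44735.6 in Targretin livers, all above the highest diet array at 28575.1 (log2 0.53 ± 0.16, adjusted p = 0.041). Each of these 2 calls was lost under 11 of the alternatives. For X64401cds_s_at these were the omission of any single Targretin array, of diet array 1, 2 or 3, or of 4HPR array 1 or 3 (highest adjusted p 0.13), and no filter on low values. For D13912_s_at they were the omission of any single Targretin array, of diet array 1, 2 or 3, or of 4HPR array 3 (highest adjusted p 0.17), quantile normalization, and no filter on low values. Both calls were also lost without diet array 2 and 4HPR array 4 together (adjusted p = 0.080 for X64401cds_s_at and 0.071 for D13912_s_at). Given arrays of the same number as a block, the adjusted p was 0.054 for X64401cds_s_at and 0.053 for D13912_s_at. L24207_i_at was 1.96-fold higher (log2 0.97 ± 0.21, adjusted p = 0.0059), with 7862.5, 11433.4 and 12975.3 in Targretin livers, against 4563.2 to 6652.9 in diet livers. L24207_r_at had a log2 difference of 0.16 ± 0.26 (adjusted p = 0.77).

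9cRA gave no passing change of Cyp3a23-3a1. X64401cds_s_at read 37220.5 to 68357.8 and D13912_s_at 20441.4 to 31616.8 in 9cRA livers, against 34757.5 to 60713.7 and 23719.8 to 28575.1 in diet livers. The 95% interval of the log2 difference was -0.20 to 0.66 for the first and -0.32 to 0.30 for the second. The probe set annotated to both Cyp3a2 and Cyp3a23-3a1, X62086mRNA_s_at, had log2 differences of 0.83 ± 0.36 after Targretin, 0.08 ± 0.33 after 9cRA and 1.21 ± 0.33 after 4HPR, and none passed (adjusted p = 0.16, 0.94 and 0.058).

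Cyp3a9, known in rats as a female-predominant form, rose after 9cRA and 4HPR and did not pass after Targretin. Its probe set U46118_at read 28861.2, 30069.9, 29181.6 and 21049.4 in 9cRA livers and 26585.4, 27974.2, 30951.7 and 41907.7 in 4HPR livers, against 18470.5, 13994.1, 12481.6 and 14008.8 in diet livers. Neither group overlapped diet. The rise was 1.85-fold after 9cRA (log2 0.89 ± 0.17, adjusted p = 0.0051) and 2.15-fold after 4HPR (log2 1.10 ± 0.17, adjusted p = 0.0035). In Targretin livers it read 11458.7, 15041.2 and 12267.7, inside or just under the diet range, with a log2 difference of -0.18 ± 0.18 and a 95% interval of -0.56 to 0.20.

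Cyp3a18, known in rats as a male-predominant form, fell after Targretin and after 9cRA. Its probe set D38381_s_at read 344.4, 398.1 and 203.8 in Targretin livers and 767.1, 518.2, 572.6 and 529.6 in 9cRA livers, against 1071.9, 1215.0, 1423.4 and 1346.1 in diet livers. The 3 groups did not overlap. It was 3.78-fold lower after Targretin (log2 -1.92 ± 0.22, adjusted p = 2.3e-05) and 2.06-fold lower after 9cRA (log2 -1.04 ± 0.21, adjusted p = 0.0074). In 4HPR livers it read 933.1, 1089.0, 1010.0 and 1445.0, overlapping diet (log2 -0.18 ± 0.21, adjusted p = 0.68).

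Cyp1a2, the liver's AhR target that oxidises caffeine and aromatic amines, fell after Targretin in all 3 of its probe sets. E01184cds_s_at read 15519.3, 8964.0 and 10833.6 in Targretin livers, against 27909.1, 29005.2, 25472.6 and 25233.4 in diet livers. M26127_s_at read 13414.0, 10805.9 and 11506.4 in Targretin livers, against 22468.8, 19520.4, 22068.9 and 21887.7 in diet livers. No Targretin array reached a diet array in either. The falls were 2.34-fold (log2 -1.23 ± 0.16, adjusted p = 6.1e-05) and 1.81-fold (log2 -0.85 ± 0.13, adjusted p = 2.8e-04), and K03241cds_s_at fell 2.28-fold (log2 -1.19 ± 0.21, adjusted p = 8.9e-04).

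After 9cRA and 4HPR no Cyp1a2 probe set passed. E01184cds_s_at read 18037.9 to 23140.8 in 9cRA livers, all under the lowest diet array at 25233.4, with a log2 difference of -0.42 ± 0.15 (adjusted p = 0.11). It passed in a fit of these 2 groups alone (adjusted p = 0.035). In 4HPR livers it read 24054.6 to 30035.2, overlapping diet, with a 95% interval of -0.35 to 0.27 for the log2 difference.

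**Figure D2:**
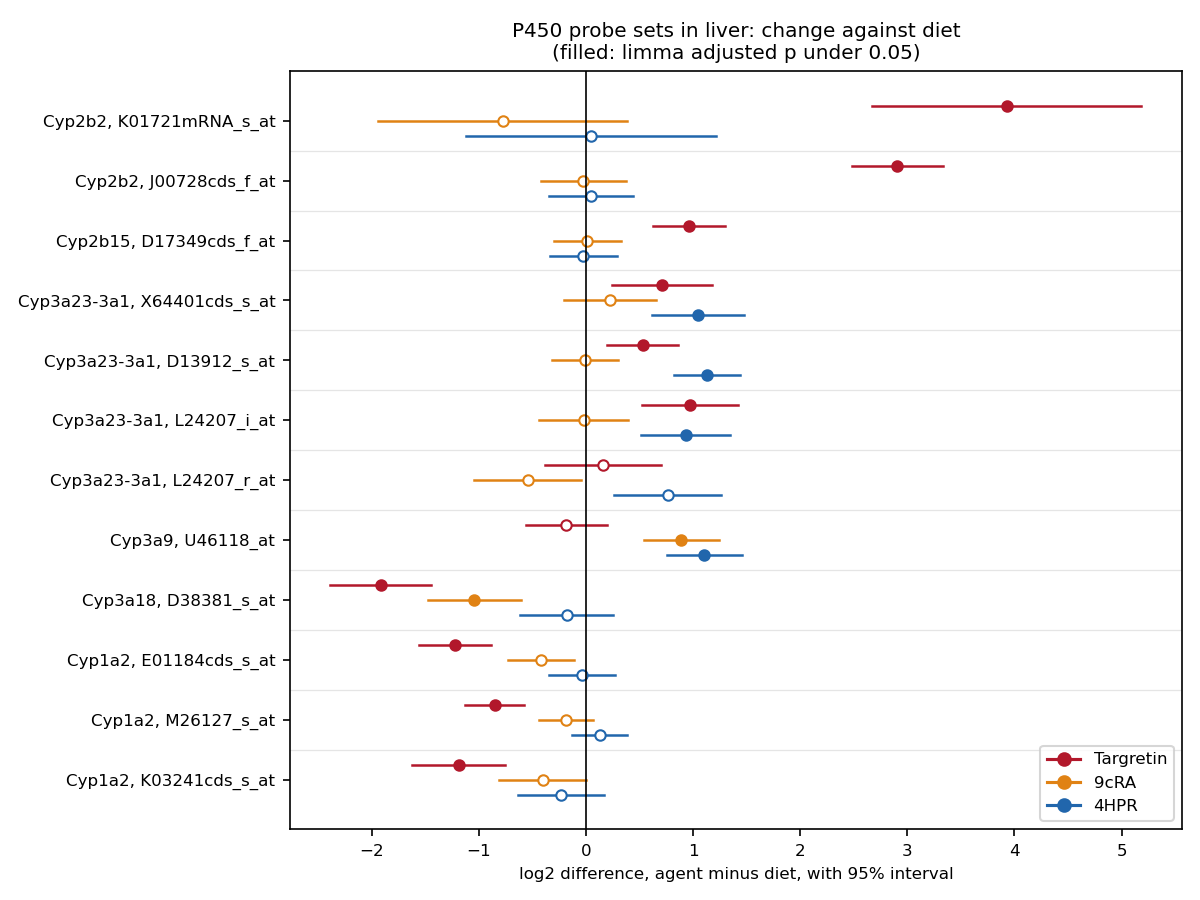
Log2 difference in liver, agent minus diet, with its 95% interval for each of the 12 P450 probe sets after Targretin, 9cRA and 4HPR. Filled points passed at an adjusted p under 0.05, which was so for 10 probe sets after Targretin, 2 after 9cRA and 4 after 4HPR.

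The agents were also set against each other in liver, as given, since their doses and routes differ. Targretin and 9cRA differed in 9 of the 12 probe sets, beside 5.72% of all tested, with 4 higher (2.86% of all) and 5 lower (2.86%) after Targretin. Targretin and 4HPR differed in 9, beside 7.87%, with 3 higher (4.16%) and 6 lower (3.71%) after Targretin. 9cRA and 4HPR differed in 2, beside 0.164%, both lower after 9cRA (0.148%).

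Cyp2b2 and Cyp2b15 were higher after Targretin than after either other agent. For J00728cds_f_at the log2 difference was 2.93 ± 0.20 against 9cRA and 2.86 ± 0.20 against 4HPR, and for Cyp2b15 it was 0.95 ± 0.16 and 0.99 ± 0.16. Cyp3a9 was lower after Targretin, by 2.10-fold against 9cRA (adjusted p = 8.6e-04) and by 2.44-fold against 4HPR (adjusted p = 1.4e-04). Its 9cRA and 4HPR arrays overlapped, with a log2 difference of -0.21 and a 95% interval of -0.56 to 0.14.

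Cyp3a18 was lower after Targretin by 3.33-fold against 4HPR (adjusted p = 6.6e-05) and by 1.83-fold against 9cRA (adjusted p = 0.026). The second call was lost without Targretin liver array 3 (adjusted p = 0.14) or 9cRA liver array 1 (adjusted p = 0.079), with arrays of the same number as a block (adjusted p = 0.069) and in a fit of these 2 groups alone (adjusted p = 0.10). Cyp1a2 was lower after Targretin than after 9cRA and 4HPR in all 3 probe sets, by 2.28-fold against 4HPR and 1.74-fold against 9cRA in E01184cds_s_at. Of these calls that of K03241cds_s_at was lost against 9cRA without Targretin array 2 or 3 or 9cRA array 1, 2 or 4 (adjusted p up to 0.20), with array quality weights (0.051) and in a fit of these 2 groups alone (0.10), and against 4HPR without Targretin array 2 (adjusted p = 0.062).

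Cyp3a23-3a1 separated 9cRA from 4HPR: D13912_s_at was 2.21-fold lower after 9cRA (log2 -1.14 ± 0.15, adjusted p = 0.0017). L24207_r_at was also lower after 9cRA (log2 -1.31 ± 0.24, adjusted p = 0.028), but that call was lost under 9 of the alternatives (adjusted p of 0.061 to 0.12). These were the fits without 4HPR liver array 2, 3 or 4, without 9cRA liver array 1, 2 or 3, without the 2 arrays that stand apart, with quantile normalization and with these 2 groups alone. Between Targretin and 4HPR D13912_s_at alone of the gene's own probe sets passed. D13912_s_at was lower after Targretin (log2 -0.60 ± 0.16, adjusted p = 0.026), a call lost under 8 of the alternatives. The adjusted p was 0.15 with quantile normalization (log2 -0.43), 0.076 with arrays of the same number as a block, 0.069 with these 2 groups alone and 0.051 without diet array 2 and 4HPR array 4. It was up to 0.12 without 4HPR liver array 2 or 3 or Targretin liver array 1 or 2. L24207_i_at had a log2 difference of 0.04 ± 0.21 between the same groups. X64401cds_s_at had a mean of 70346.5 in Targretin livers, against 89842.7 in 4HPR livers. For L24207_r_at the means were 5645.97 and 8708.58. The shared probe set X62086mRNA_s_at had a log2 difference of -0.38 ± 0.36 (adjusted p = 0.56).

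The receptors themselves were measured in part. Of the 14 genes listed as receptors and their partners, 9 had a probe set of their own, and neither Nr1i3 nor Nr1i2 was among them. After Targretin 2 of the 9 rose and 2 fell, beside 11.1% of all probe sets called. Nr0b2, a corepressor also called SHP, read 10002 ± 1348 in Targretin livers (SD, n = 3) and 2290 ± 513 in diet livers (n = 4), a log2 difference of 2.13 ± 0.22 (adjusted p = 6.5e-06). Rxrg rose (log2 0.60), and the glucocorticoid receptor gene Nr3c1 (log2 -0.87) and the chaperone gene Hsp90ab1 (log2 -0.45) fell. After 9cRA none of the 9 passed, beside 5.16% of all, and after 4HPR 1 did, beside 2.78%, Nr3c1 (log2 -0.85, adjusted p = 0.033). Rxra, the liver's main RXR gene, had log2 differences of 0.24 ± 0.28 after Targretin, 0.39 ± 0.26 after 9cRA and 0.00 ± 0.26 after 4HPR. Ahr and Arnt did not pass after any agent (AF082124_s_at of Ahr, log2 0.07, -0.13 and -0.34, and U61184_at of Arnt, log2 -0.27, 0.28 and -0.19, for Targretin, 9cRA and 4HPR).

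Por encodes the reductase that passes electrons to every microsomal P450, and all 3 of its probe sets rose after Targretin. M10068mRNA_s_at read 7384.8 to 9972.5 in Targretin livers, against 3723.9 to 4771.4 in diet livers, without overlap (log2 1.10 ± 0.24, adjusted p = 0.0051). The other two had log2 differences of 1.23 ± 0.22 and 1.19 ± 0.29. Of the 5 genes of the P450 reductase system, Por rose and Cyb5a fell (log2 -0.53 ± 0.16, adjusted p = 0.043) after Targretin, beside 11.1% of all probe sets, and none passed after 9cRA or 4HPR, beside 5.16% and 2.78%.

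Other known CAR and PXR targets were counted in the same way. Por, described above, was counted in the reductase list and not among them. Of 16 tested genes in a list of such targets outside the 6 P450 genes, 0 rose and 1 fell after Targretin, beside 11.1% of all probe sets called, namely the bile transporter gene Abcc2 (log2 -0.81 ± 0.22, adjusted p = 0.022), and the median log2 difference was 0.05 against -0.02 over all probe sets. After 9cRA 2 of the 16 rose and 4 fell, beside 5.16% of all. The largest of these changes were those of Abcc2 (log2 -0.95), the glutathione transferase gene Gstm1 (-0.88), the glucuronosyltransferase gene Ugt2b1 (-0.84) and Cyp2c7 (0.69). After 4HPR Cyp2c6v1 alone passed (log2 0.55, adjusted p = 0.0499), beside 2.78% of all. Among 3 tested AhR targets, 1 fell after Targretin and none passed after 9cRA or 4HPR, beside the same shares of all. It was the stress response factor gene Nfe2l2 (log2 -0.92 ± 0.16, adjusted p = 0.0010). Cyp1a1, the neighbour of Cyp1a2 and the best known AhR target, was too dim to be tested, at 26.6 to 211.9 over all liver arrays. Cyp3a2 was also too dim (M13646_s_at), at 144.9 to 227.7 in Targretin livers, against 19.4 to 85.6 in diet livers.

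Of 14 tested genes of growth hormone and sex dependence in liver, 1 rose and 2 fell after Targretin, beside 11.1% of all probe sets called, and none passed after 9cRA or 4HPR, beside 5.16% and 2.78%. Cyp17a1, a steroid hydroxylase, read 3330 ± 1012 in Targretin livers (SD, n = 3) and 169 ± 89.3 in diet livers (n = 4), a log2 difference of 4.10 ± 0.41. Onecut1 (log2 -2.32 ± 0.57) and the growth hormone receptor gene Ghr (log2 -1.11 ± 0.23) fell.

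The hepatocyte markers were counted in liver in the same way, and after Targretin their share was near that of all probe sets. Of 17 tested, 0 rose and 2 fell after Targretin, Tdo2 (log2 -1.80) and Apoh (-0.39), 6 rose and 3 fell after 9cRA, and 0 rose and 2 fell after 4HPR. Of all probe sets 11.1%, 5.16% and 2.78% were called in these comparisons. Their summed signal was 757767 to 1010715 in Targretin livers, 1078042 to 1281107 in 9cRA livers and 789090 to 1237348 in 4HPR livers, against 790392 to 920896 in diet livers. Of 9 tested markers of periportal hepatocytes, 4 fell and 0 rose after 9cRA (median log2 -0.82), led by Sds (log2 -1.82) and Arg1 (-1.06), 2 fell and 1 rose after Targretin, and none passed after 4HPR. Their summed signal was 132557 to 148068 in Targretin livers, 109963 to 136224 in 9cRA livers and 134861 to 154441 in 4HPR livers, against 148017 to 170512 in diet livers. Of 5 tested markers of pericentral hepatocytes, 1 rose after 9cRA, Cyp2e1 (log2 0.62), 1 rose and 1 fell after Targretin, and none passed after 4HPR. The pericentral sum, over 7 genes, was 100450 to 115080 in Targretin livers, 138018 to 186795 in 9cRA livers and 108375 to 159318 in 4HPR livers, against 92492 to 116367 in diet livers, so that 9cRA and diet livers did not overlap in either sum. Most of the pericentral sum was Cyp2e1 alone, with a mean of 113526.6 in 9cRA livers and 73684 in diet livers. Of 7 tested macrophage and antigen-presenting cell markers, 4, 2 and 4 fell after Targretin, 9cRA and 4HPR, led by Cd74 (log2 -1.51, -0.96 and -1.14). All that fell were MHC class II genes (RT1-Da, RT1-Ba and RT1-Bb) or Cd74, their invariant chain. No other tested marker of this list passed. The part of these cell type markers in the P450 changes was not tested.

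The genes whose 3 log2 differences in liver lay closest to those of each P450 gene were found by the root mean square difference over the 3 agents, as a description over 15 arrays. For Cyp2b2 (K01721mRNA_s_at) they were Pnpla3 (0.37), Cyp17a1 (0.40) and Acaa1b (0.58), with log2 differences of 3.46, 4.10 and 4.39 after Targretin. For Cyp2b15 they were Ppp1r12a, Nrn1 and Hadha (0.07 to 0.08). For Cyp3a9 they were Col8a1, C4bpa and Idi1 (0.18 to 0.21). For Cyp3a18 they were Mapk14, Gclm and Lyn (0.18 to 0.24), for Cyp3a23-3a1 Tnfsf13, Ptpn1 and Metrnl (0.09 to 0.15), and for Cyp1a2 C1qc, Asmt and Lypd8l1 (0.10 to 0.11).

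Across organs on the plain diet, Cyp2b2 stood apart from the rest. K01721mRNA_s_at read 1702.7 to 2258.3 in diet liver, against 30029.4, 38572.6 and 45529.5 in diet lung and 1212.6 to 2385.5 in diet mammary gland. J00728cds_f_at read 2395.5 to 2906.5 in diet liver, against 12206.9, 14570.4 and 14659.1 in diet lung and 96.5 to 138.2 in diet mammary gland. Liver was below lung in both, with log2 differences, liver minus lung, of -4.19 ± 0.46 and -2.35 ± 0.29. Cyp2b1 is the Cyp2b form known from rat lung, and whether these probe sets read it there was not tested. Cyp2b15 read 1747.6 to 2094.7 in diet liver, against 3554.1 to 4371.4 in diet lung and 543.1 to 746.7 in diet mammary gland, so it too was lower in liver than in lung (log2 -1.06 ± 0.23).

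The other 9 probe sets were higher in liver than in lung, and 11 of 12 were higher in liver than in mammary gland, K01721mRNA_s_at being the exception (log2 0.21 ± 0.43). Of all probe sets tested 53.8% differed between diet liver and diet lung, 15.9% higher and 37.9% lower in liver, and 57.8% between diet liver and diet mammary gland, 24.7% higher in liver. Cyp1a2 had the widest gap, and its size differed between the probe sets. K03241cds_s_at read 13604.6 to 16763.3 in diet liver, against 20.8 to 24.7 in diet lung and 12.7 to 28.8 in diet mammary gland. E01184cds_s_at read 25233.4 to 29005.2 in diet liver, against 29.9 to 355.0 in diet lung and 89.5 to 700.8 in diet mammary gland. For M26127_s_at the values were 19520.4 to 22468.8, 95.9 to 643.8 and 726.5 to 1085.5, in the same order. Cyp3a9 read 12481.6 to 18470.5 in diet liver, against 746.1 to 1345.4 in diet lung and 521.0 to 1573.8 in diet mammary gland. Its lung and mammary gland levels did not differ beyond their spread (log2 0.22 ± 0.35). Cyp3a18 was near background in both, at 14.0 to 37.8 in diet lung and 58.1 to 176.9 in diet mammary gland.

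**Figure D3:**
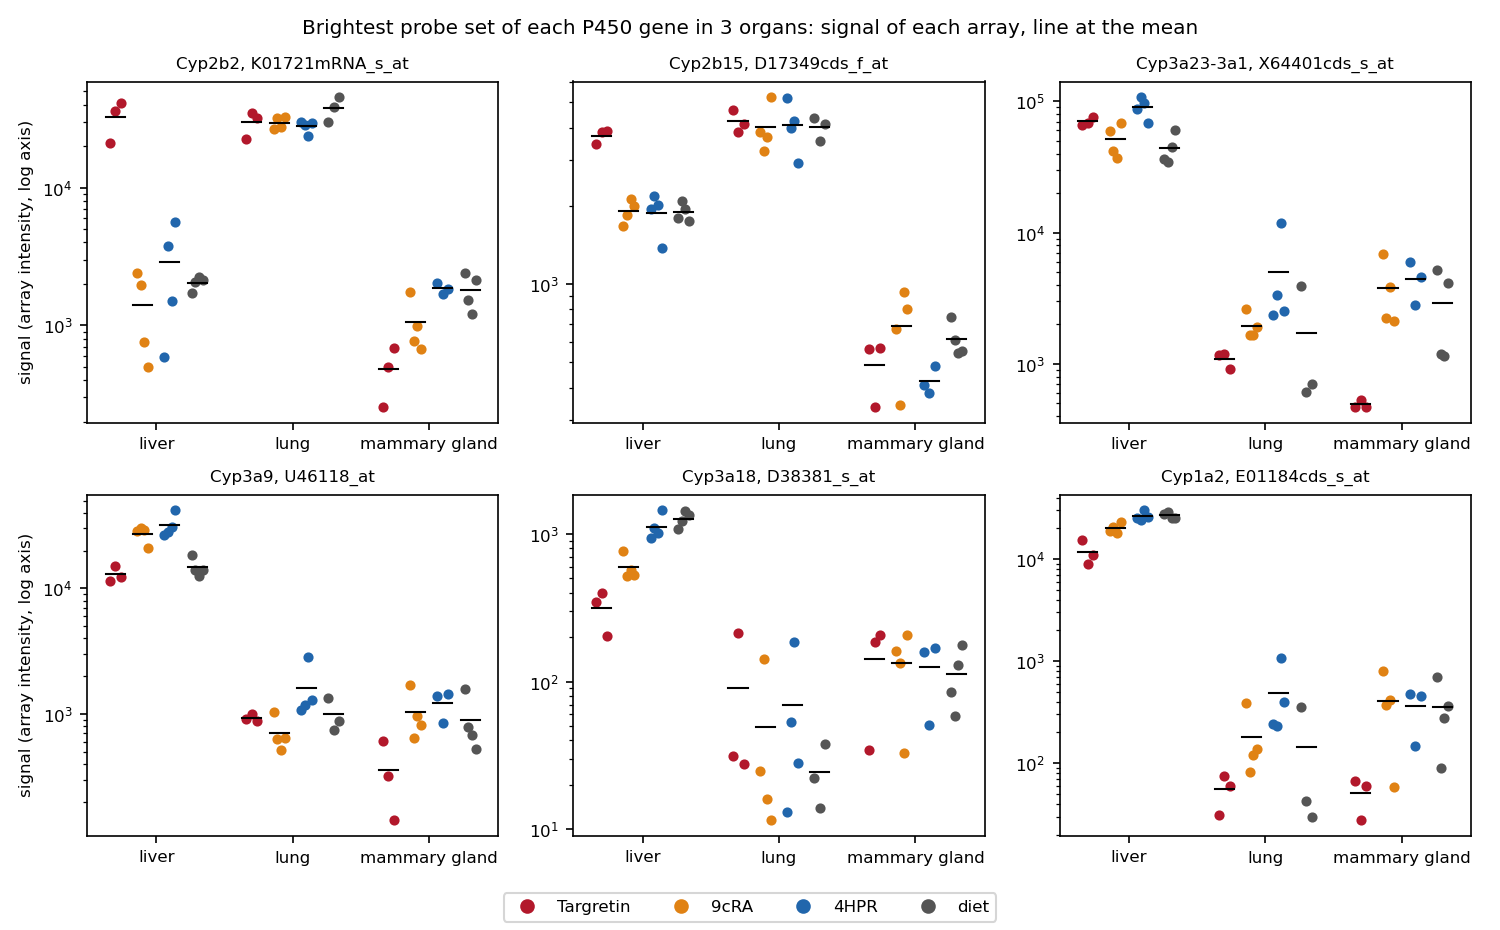
Signal (log axis) of the brightest probe set of each P450 gene in every array of liver, lung and mammary gland after Targretin, 9cRA, 4HPR and diet, with a line at the group mean. Cyp2b2 read 20970.3 to 41043.9 in Targretin livers, near the 22484.8 to 45529.5 of the lung arrays of all groups, while Cyp3a9, Cyp3a23-3a1 and Cyp1a2 read lower on every lung and mammary gland array than on every liver array. The lowest liver array of Cyp3a18, at 203.8 after Targretin, lies within its lung range of 11.5 to 212.2.

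In lung no P450 probe set passed against diet after any agent. None of the 10 tested passed with limma after Targretin, 9cRA or 4HPR, beside 2.39%, 0% and 0% of all probe sets, and 0, 0 and 5 of the 10 had an unadjusted p under 0.05. Cyp2b2 (K01721mRNA_s_at) read 22484.8 to 34739.8 in Targretin lung, 26603.8 to 32509.8 in 9cRA lung and 23735.5 to 29912.4 in 4HPR lung, against 30029.4 to 45529.5 in diet lung. The 5 with an unadjusted p under 0.05 after 4HPR were K01721mRNA_s_at, lower, and 4 higher probe sets of Cyp3a23-3a1 and Cyp1a2. D13912_s_at of Cyp3a23-3a1 read 895.5, 1982.2, 4788.6 and 1259.8 in 4HPR lung, against 1268.1, 110.5 and 220.4 in diet lung, so that 1 diet array lay among the 4HPR arrays (log2 2.33 ± 0.63, adjusted p = 0.55).

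The same lung arrays stood apart in hepatocyte markers. The summed signal of the 17 markers was 31886, 52297, 171754 and 38758 in the 4HPR lung arrays, against 55530, 10753 and 12227 in the diet lung arrays, in the same array order. Albumin (Alb), their defining member, read 4652.1 to 27904.9 in 4HPR lung, against 17.1 to 11199.4 in diet lung, and 39.0 to 41.1 in Targretin lung. The part of liver RNA in these P450 values was not tested. With array quality weights 5 P450 probe sets passed after 4HPR in lung and without diet lung array 2, which has the high marker sum, 2 passed. Without 4HPR lung array 3 and Targretin lung array 2 none passed.

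In mammary gland Targretin lowered 5 of the 9 probe sets tested, beside 13.1% of all probe sets in either direction and 5.18% lower, and 0 were higher. Without Targretin array 3 the count was 4. D13912_s_at of Cyp3a23-3a1 read 338.9, 317.0 and 150.2 in Targretin glands, against 3512.1, 1537.9, 1156.8 and 2709.4 in diet glands, a 7.06-fold fall (log2 -2.82 ± 0.42, adjusted p = 6.9e-04). X64401cds_s_at read 467.7 to 532.6 in Targretin glands, against 1140.8 to 5182.2 in diet glands (log2 -2.16 ± 0.52, adjusted p = 0.016). The groups did not overlap in either. L24207_i_at was lower by a log2 difference of 0.92 (adjusted p = 0.04995), and that call was lost without any 1 of Targretin arrays 1 to 3, 4HPR arrays 2 to 4 or diet arrays 1, 2 and 4 (adjusted p up to 0.13), and with no filter on low values (0.070). L24207_r_at did not pass, at 369.7 to 493.6 in Targretin glands, against 481.3 to 685.3 in diet glands, with overlap. X62086mRNA_s_at, shared with Cyp3a2, read 1140.6 to 1202.9 in Targretin glands, against 1144.1 to 1725.8 in diet glands. It did not pass either (log2 -0.27 ± 0.37, adjusted p = 0.66).

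M26127_s_at of Cyp1a2 read 242.7, 193.2 and 123.7 in Targretin glands, against 998.5, 1004.2, 1085.5 and 726.5 in diet glands (log2 -2.16 ± 0.36, adjusted p = 0.0017). K01721mRNA_s_at of Cyp2b2 read 254.3, 494.6 and 687.1 in Targretin glands, against 2385.5, 1523.6, 1212.6 and 2120.6 in diet glands (log2 -1.89 ± 0.35, adjusted p = 0.0037). Neither overlapped diet. The fall of Cyp2b2 rests on K01721mRNA_s_at, as its other probe set, J00728cds_f_at, was too dim to be tested in mammary gland. Of the probe sets shared with Cyp2b1 or Cyp2b15, L00320cds_f_at was also too dim. K00996mRNA_s_at (log2 -0.27 ± 0.21, adjusted p = 0.39) and M11251cds_f_at (log2 -0.77 ± 0.52, adjusted p = 0.33) did not pass. Nor did M13234cds_f_at (log2 -0.21 ± 0.37, adjusted p = 0.74). Cyp3a9 (log2 -1.31 ± 0.44, adjusted p = 0.060) and E01184cds_s_at of Cyp1a2 (log2 -1.92 ± 0.68, adjusted p = 0.072) did not pass. After 9cRA and 4HPR 0 of the 9 passed with limma, beside 0% of all probe sets, with 2 and 0 at an unadjusted p under 0.05.

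All 17 hepatocyte markers fell in the same Targretin glands, with a median log2 difference of -3.55. Their summed signal was 10149, 10227 and 6278 in Targretin glands, against 118154, 72310, 75460 and 91875 in diet glands, and Alb read 800.7 to 4321.7 in Targretin glands, against 16366.6 to 33138.3 in diet glands. As a share of the mean of the diet livers, the marker sum was 0.723% to 1.18% in Targretin glands, against 8.33% to 13.6% in diet glands. D13912_s_at was 0.573% to 1.29% in Targretin glands, against 4.41% to 13.4% in diet glands, on the same footing. M26127_s_at was 0.576% to 1.13% in Targretin glands, against 3.38% to 5.05% in diet glands. K01721mRNA_s_at was 12.5% to 33.8% in Targretin glands, against 59.6% to 117% in diet glands, so its share exceeded the marker sum's in every Targretin and diet gland. Other cell type markers were also counted in these glands. Of 11 tested mammary epithelium markers 2 rose, and 2 of 8 macrophage and antigen-presenting cell markers rose, while 1 of 7 adipocyte markers fell. These are 1 or 2 genes of each list, beside 13.1% of all probe sets called. None of the 3 endothelium, 3 erythroid and 7 lymphocyte markers tested passed. The mammary epithelium sum was 251428 to 359416 in Targretin glands, against 154248 to 240237 in diet glands. The part of hepatocyte RNA, or of other cell types, in the falls of these probe sets was not tested.

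**Figure D4:**
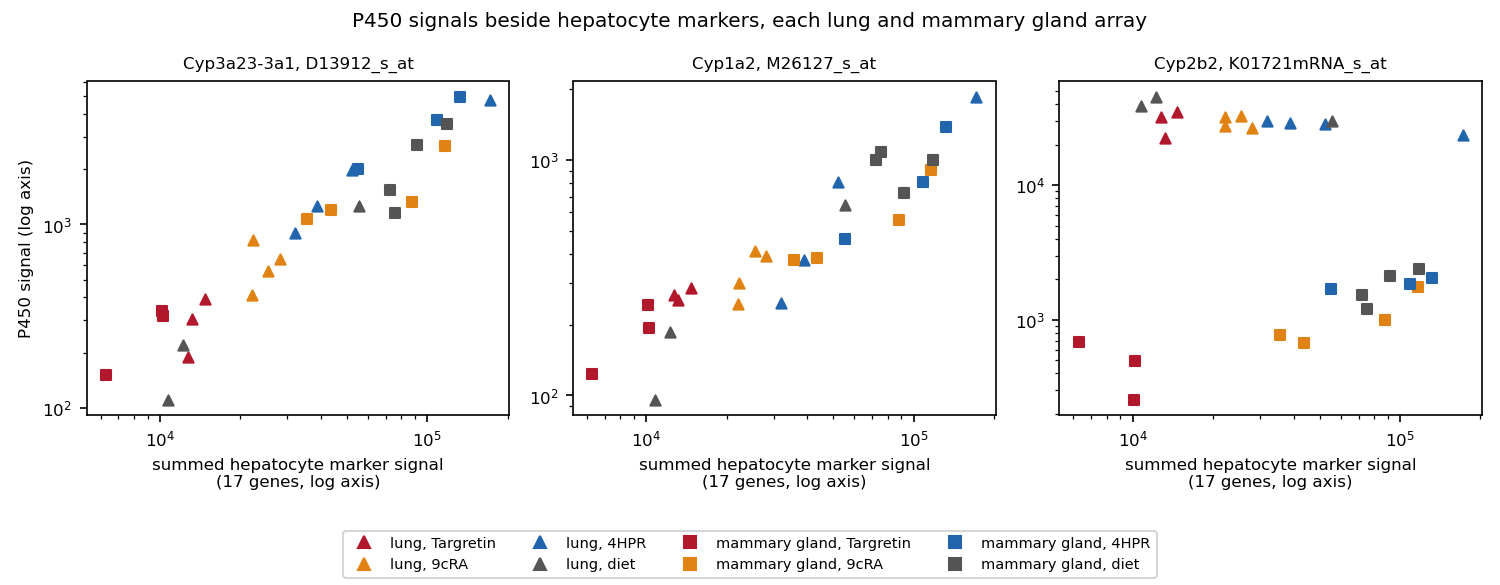
Signal of Cyp3a23-3a1 (D13912_s_at), Cyp1a2 (M26127_s_at) and Cyp2b2 (K01721mRNA_s_at) in each lung array (triangles) and mammary gland array (squares), set against the summed signal of 17 hepatocyte markers on the same array, both on log axes, coloured by group. The Targretin glands, at marker sums of 6278 to 10227, lie below the diet glands, at 72310 to 118154, for all 3 probe sets. 4HPR lung array 3 has the highest marker sum, 171754, and read 4788.6 for Cyp3a23-3a1, while Cyp2b2 in lung stayed between 22484.8 and 45529.5.

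Between agents in mammary gland, 2 of the 9 probe sets were lower after Targretin than after 9cRA, both of Cyp3a23-3a1, beside 2.05% of all in either direction and 1.9% lower. Against 4HPR 5 were lower after Targretin, beside 4.23% in either direction and 2.69% lower. D13912_s_at was 5.12-fold lower than in 9cRA glands (adjusted p = 0.0051) and 11.5-fold lower than in 4HPR glands (adjusted p = 1.6e-04). Of the 5 lower than in 4HPR glands, Cyp3a9 (log2 -1.83) lost its call under 8 of the alternatives (adjusted p of 0.052 to 0.14). Among these were 6 of the fits with a single array left out. M26127_s_at of Cyp1a2 lost its call without 4HPR mammary gland array 2 (adjusted p = 0.052). Without that array 3 passed in place of 5. The marker sum was 35628 to 116371 in 9cRA glands and 55159 to 132048 in 4HPR glands.

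The changes against diet were also compared between organs, in 1 fit of all 43 arrays. After Targretin 3 of the 12 probe sets differed between liver and lung, beside 1.65% of all probe sets, 6 between liver and mammary gland, beside 10.2%, and 2 between lung and mammary gland, beside 5.09%. Both Cyp2b2 probe sets rose more in liver than in lung, with differences of the log2 changes of 4.28 ± 0.67 (K01721mRNA_s_at) and 3.36 ± 0.42 (J00728cds_f_at). Cyp2b15 changed more in liver than in mammary gland by 1.29 ± 0.32 (adjusted p = 0.0066). Cyp3a18 fell in liver, but its signals in lung lay between 11.5 and 212.2, so its difference between liver and lung (-2.67 ± 0.72, adjusted p = 0.044) rests on values near background, and it did not pass with no filter on low values (adjusted p = 0.051). After 9cRA and after 4HPR none of the 12 differed between any organs with limma, beside 0.0289% (liver against lung), 0.751% (liver against mammary gland) and 0% (lung against mammary gland) of all after 9cRA, and 0%, 0.0144% and 0% after 4HPR. Of the 3 organ pairs, 1, 0 and 1 probe sets had an unadjusted p under 0.05 after 9cRA, and 3, 1 and 3 after 4HPR.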

How the data were processed

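RNA of liver, lung and mammary gland was measured on 43 Affymetrix rat arrays, 1 per sample. The authors deposited MAS5 signal intensity values per probe set, per the labels and the submitters' processing notes, on a linear scale. The 2% trimmed mean lay between 1501.78 and 1503.29 on every array, so no further scaling was applied. Which MAS5 version was used is not given in the sources used here.

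Groups came from the sample labels. Probe sets were named from the platform's annotation: 7018 had 1 symbol, 308 several and 1473 none. Of 8799 probe sets, 59 controls were left out. The 10th percentile of all values, 38.1, was added to each signal before log2. Probe sets entered an organ's test if they exceeded the array's 40th percentile on at least 3 arrays, namely 6084 for liver, 5935 for lung, 6059 for mammary gland and 6921 for at least 1 organ. The 4 groups of an organ were fitted together, using lmFit and eBayes with trend (limma 3.58.1, R 4.3.3), and 1 fit of all 43 arrays gave the differences between organs. The Benjamini-Hochberg adjustment ran over all probe sets tested. The script was tested on simulated data. Precision is limited by the number of arrays. No 2 arrays were identical, and at most 0.136% of values were equal between any 2 arrays.

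Every probe set of the 6 genes is reported. From 5 pathway lists the counts and up to 4 passing genes per agent are given, 1 probe set per gene, with Ahr, Arnt, Rxra, Por, Cyp1a1 and Cyp3a2 wherever measured, and for each P450 gene the 3 most alike genes. Levels of 10 lists of cell type markers were also computed. The members, lists and rules were chosen with earlier results of these data known. The spaced repeat of AGTTCA was added after the promoters had been seen. Promoter sequences are from RefSeq (GRCr8), where all 6 genes matched by symbol. The settings varied were the normalization (quantile), the filter (none), the pseudocount (4 times larger), a replicate block, array quality weights, the groups in the fit (the 2 compared alone) and the arrays (each one omitted in turn). A fit without 5 arrays in doubt was added after seeing the data.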

Additional observations from a re-analysis of the deposited data

Results flagged for a closer look

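Among 84 groups of 4 arrays, gaps were taken on the log2 scale. In 2, an array's gap to the nearest other array was more than 0.829 of the group's range, and chance gives about 4.2. The first was 9cRA liver array 4, where Cyp3a9 read 21049.4, below the 28861.2 to 30069.9 of the other 9cRA livers. The second was diet liver array 4, where K03241cds_s_at of Cyp1a2 read 13604.6, below the 16240.3 to 16763.3 of the other diet livers. An array far out on the linear signal can stay under this rule. In 4HPR lung array 3, which was not flagged, K03241cds_s_at read 965.1, against 17.3 to 60.4 in the other 4HPR lungs.

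Other results stand out because the change after Targretin differed between organs in the fit of all arrays. For Cyp2b2 the log2 change in liver exceeded that in lung by 4.28 (K01721mRNA_s_at) and 3.36 (J00728cds_f_at), and that in mammary gland by 5.82 and 3.11, where J00728cds_f_at was too dim to be tested on the mammary gland arrays (62.4 to 177.6), so that 3.11 rests on values near background there. For Cyp2b15 the change in liver exceeded that in mammary gland by 1.29. For Cyp3a23-3a1 it did so by 2.87 (X64401cds_s_at), 3.35 (D13912_s_at) and 1.89 (L24207_i_at). For Cyp3a18 the liver minus lung difference was -2.67, with lung signals near background. Between lung and mammary gland the log2 change differed by 2.63 for D13912_s_at of Cyp3a23-3a1 and by 2.33 for M26127_s_at of Cyp1a2, lung minus mammary gland. The changes against diet in lung did not pass for either, and in mammary gland these probe sets moved with the hepatocyte markers given above. The cause was not tested.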

How the results depend on the processing

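The counts of passing P450 probe sets against diet in liver stayed within 1.5 times the reported ones under each alternative tried, at 8 to 10 after Targretin, 2 to 3 after 9cRA and 3 to 5 after 4HPR. Of 48 passing log2 results in the fits by organ, 36 held whichever single array was omitted. Between 9cRA and 4HPR in liver the count was 1 with quantile normalization, with only the 2 groups compared, and without the arrays in doubt, and 1 to 2 with 1 array left out. In lung array quality weights gave 1 passing probe set after Targretin, 1 after 9cRA and 5 after 4HPR, where the reported counts were 0, and 4HPR gave 0 to 2 with 1 array left out. Between Targretin and 4HPR in mammary gland the count was 3 to 5 with 1 array left out.

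Some log2 differences near 0 that did not pass changed sign. After 9cRA in liver J00728cds_f_at of Cyp2b2 became 0.017 with quantile normalization, 0.0098 with array quality weights and 0.016 without the arrays in doubt (-0.17 to 0.078 with 1 array left out). X64401cds_s_at of Cyp3a23-3a1 became -0.11 with quantile normalization, and L24207_i_at 0.0042 without the arrays in doubt (-0.12 to 0.17 with 1 array left out). With 1 array left out Cyp2b15 ranged from -0.044 to 0.070 and D13912_s_at from -0.11 to 0.10. After 4HPR K01721mRNA_s_at of Cyp2b2 became -0.20 with array quality weights and -0.42 without the arrays in doubt (-0.42 to 0.64 with 1 left out). Cyp2b15 became 0.054 with quantile normalization, 0.10 with weights and 0.16 without the arrays in doubt (-0.10 to 0.11 with 1 left out), and E01184cds_s_at of Cyp1a2 became 0.0058 without the arrays in doubt (-0.10 to 0.0032 with 1 left out). J00728cds_f_at after 4HPR ranged from -0.071 to 0.11 and L24207_r_at after Targretin from -0.038 to 0.28 with 1 array left out. The cause was not tested.

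The arrays in doubt, chosen after seeing the data, were diet liver 2, 4HPR liver 4, Targretin lung 2, 4HPR lung 3 and Targretin mammary gland 3. Nothing in the labels pairs arrays of the same number. The median correlation of their residuals was -0.000861 for liver, 0.0256 for lung and 0.0124 for mammary gland, and 0 of 21 such pairs exceeded 0.1 for liver, 6 of 18 for lung and 3 of 18 for mammary gland, against 4 of 63, 11 of 55 and 12 of 55 pairs of unequal number. Across organs 12 of 41 pairs of the same number and agent exceeded 0.1 (median 0.046), against 6 of 114 of unequal number (median -0.013). With arrays of the same number as a block across organs, the P450 calls between organs kept their direction and their side of the threshold. With a replicate block 8 P450 probe sets passed after Targretin in liver, 2 after 9cRA and 5 after 4HPR. Dim probe sets, such as those of Cyp3a18 and Cyp1a2 outside the liver, limit what can be seen there.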
